A study of Mus musculus with 2 samples.

Results

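The genes described here build the protein import machinery of mitochondria, the cristae of the inner membrane and the prohibitin ring. They were taken from the deposited tables as the annotated genes whose symbol starts with Tomm, Timm or Chchd, together with Phb, Phb2, Immt, Apoo, Apool, Opa1, Mfn1, Mfn2 and Samm50, without symbols holding "-ps". This gave 42 genes, all protein coding, of 18179 annotated genes with reads in at least 1 library, and 41 of the 42 had reads in both. The annotation lists 44 genes that meet the rule, and the other 2, Timm8a2 and Tomm6os, had no row in either table. Reads on symbols holding "-ps", 34 in replicate 1 and 69 in replicate 2, were not added to any gene.

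Nearly all proteins of mitochondria are made in the cytosol and must cross the outer membrane through the Tomm channel. From there, proteins with an N-terminal presequence pass the inner membrane through the Timm23 and Timm17 channel, while carrier proteins are led by small Timm chaperones to the Timm22 complex, and small cysteine-rich proteins are trapped between the membranes by Chchd4. Immt, its Chchd and Apoo partners and Samm50 hold the folds of the inner membrane, the cristae, in place, the prohibitins Phb and Phb2 form a ring in that membrane, and Mfn1, Mfn2 and Opa1 fuse mitochondria. In steroid-making cells of the adrenal cortex the first step of hormone synthesis, the cut of the cholesterol side chain, takes place at the inner membrane, and their mitochondria are known for abundant tubular or vesicular cristae.

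Long-read RNA sequencing, in which 1 read stands for 1 RNA molecule and is meant to cover most of it, was run on adrenal glands of female B6CASTF1/J hybrid mice aged 10 days. The labels place both libraries in 1 group as biological replicates 1 and 2, with no other age, sex, tissue or treatment. They name the same animal for both in the library text but different animals in the biosample text, so p-values below compare the reads of 2 libraries, not conditions, and may not cover differences between animals. The libraries held 593165 reads (replicate 1) and 772154 reads (replicate 2) without spike-ins, and all levels are counts scaled to these totals (CPM), not divided by length, since a read is counted once whatever its length.

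For a gene without reads the depth leaves a limit of 5.06 CPM in replicate 1 and of 3.89 CPM in replicate 2, the level of 3 reads. Intervals are 95% exact and cover counting error only, since reads are not independent molecules where the amplification is unknown. The gland's own markers were present: 6 steroid cortex genes summed to 16860 CPM in replicate 1 and 20734 CPM in replicate 2, and 5 chromaffin genes to 4884 and 5413 CPM. Markers of neighbouring tissues were present too and differed between the libraries. The sums of replicates 1 and 2 were 12255 and 18520 CPM for 7 genes listed for brown fat. Of these, Fabp4, Plin1 and Adipoq mark fat cells in general. The sums were 7025 and 1085 CPM for 5 liver genes and 10503 and 3600 CPM for 8 striated muscle genes. For 6 kidney genes they were 5.06 and 939 CPM, and 5 of the 6 had 0 reads in replicate 1. Red cell genes (4) summed to 5486 and 4135 CPM. In bulk tissue, fewer cells of a type and less RNA per cell cannot be told apart, and cells of these tissues, mature red cells apart, carry mitochondria, so the part of each tissue in the values below was not tested.

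Together the 42 genes took 4659 reads in replicate 1 and 7430 reads in replicate 2, which is 7854 CPM (interval 7631 to 8083) and 9622 CPM (9405 to 9844), with a mean of 8738 ± 1250 CPM (SD, n = 2). The median gene of the set stood at 126 CPM, against 31.6 CPM over all 10567 genes with 10 or more reads. Mean levels were at or above 100 CPM for 25 genes, between 50 and 100 CPM for 10 and below 50 CPM for 7. Chchd genes outside the cristae complex held the largest share of the summed level, 30.5%, and the 3 fusion genes the smallest, 5.62%.

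Chchd10 and Chchd2, small related proteins of the intermembrane space, led the set. Chchd10 (ENSMUSG00000049422.7, chr10:75933130-75937747) had 738 reads (1244 CPM) in replicate 1 and 1373 reads (1778 CPM) in replicate 2, and its mean of 1511 ± 378 CPM ranked 53 of all annotated genes. Chchd2 (ENSMUSG00000070493.3, chr5:129881156-129887470) had 381 reads (642 CPM) and 748 reads (969 CPM). Of the reads of this pair, Chchd2 took 34.0% in replicate 1 (interval 31.3 to 36.9) and 35.3% in replicate 2 (33.2 to 37.3). The balance of the pair was thus alike in both libraries while both genes were lower in replicate 1. The other 4 genes of this group were far below. Chchd4, the oxidoreductase that traps small proteins between the membranes, had 116 and 122 CPM, and Chchd1, a protein of the mitochondrial ribosome, had 72.5 and 128 CPM. Chchd7 had 62.4 and 120.4 CPM and Chchd5 42.1 and 41.4 CPM.

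**Figure D1:**
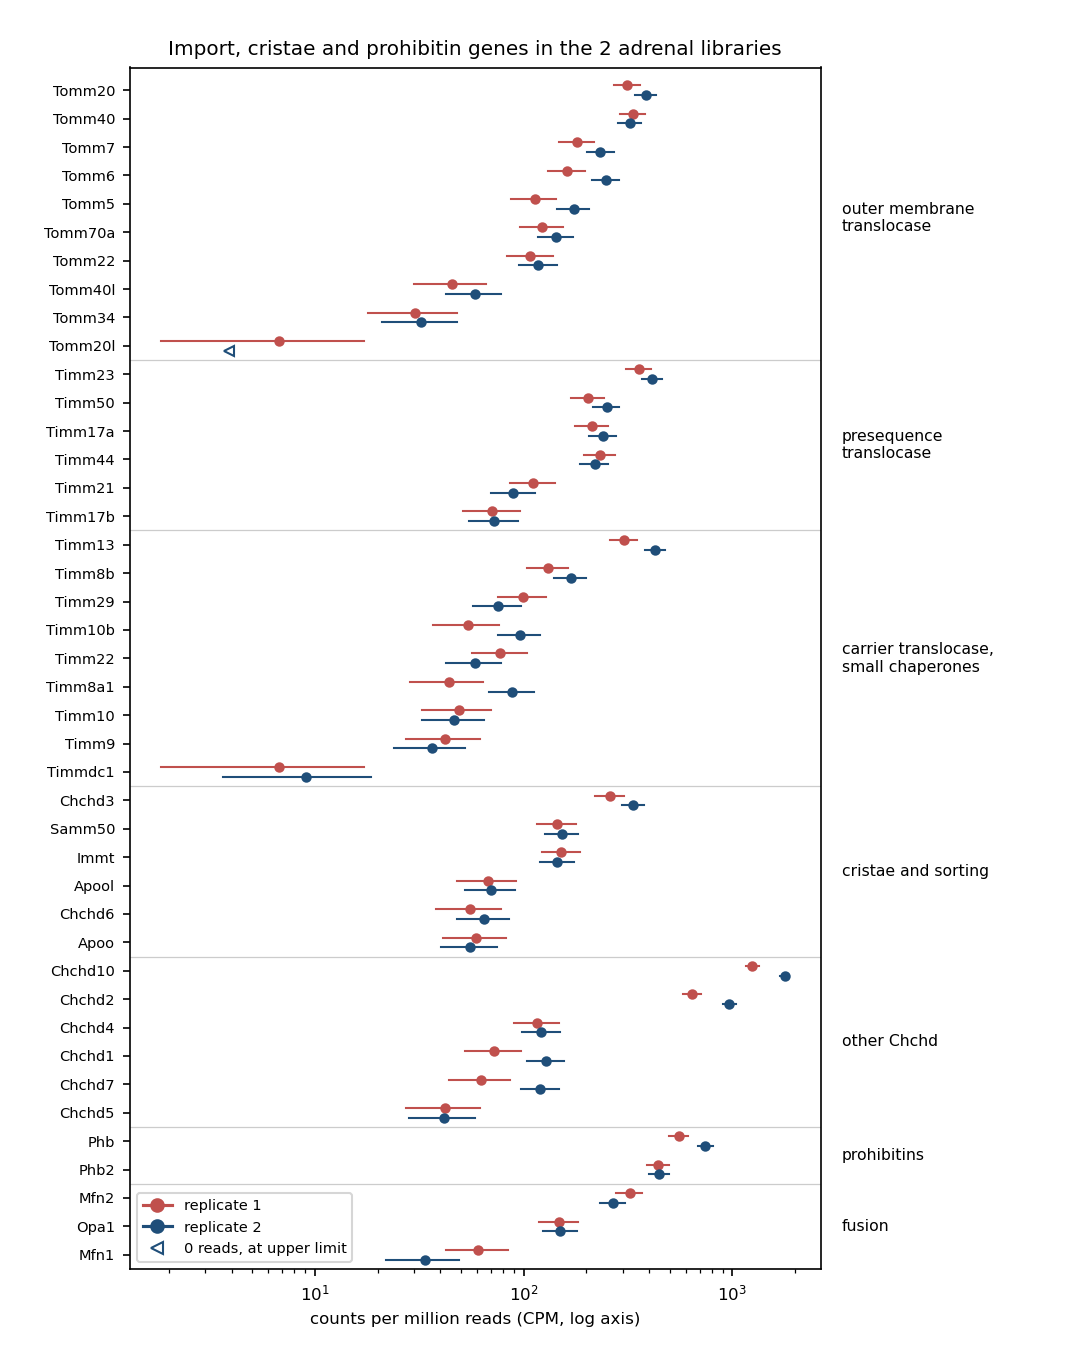
Level of each of the 42 genes in CPM (log axis) in replicate 1 (red) and replicate 2 (blue), grouped by role, with 95% Poisson intervals as lines; the open triangle is a gene with 0 reads, drawn at the level of 3 reads. Chchd10 and Chchd2 lie highest, with 1511 and 806 CPM on average, and Tomm20l lowest, with 4 and 0 reads.

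The prohibitins followed. Phb (ENSMUSG00000038845.11, chr11:95666957-95680773) had 328 reads (553 CPM) in replicate 1 and 572 reads (741 CPM) in replicate 2. Phb2 (ENSMUSG00000004264.17, chr6:124712336-124716950) had 262 reads (442 CPM) and 345 reads (447 CPM). Although their proteins sit in 1 ring, Phb took 55.6% of the reads of the pair in replicate 1 (interval 51.5 to 59.7) and 62.4% in replicate 2 (59.2 to 65.5), so that Phb2 was the less abundant of the pair in both libraries. This balance depends on which reads are counted: with reads on annotated transcripts alone Phb took 99.7% of the pair, because Phb2 then keeps 1 read in each library, as described with its exons.

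In the outer membrane translocase, whose 10 genes summed to 1565 ± 210.2 CPM (SD, n = 2), the receptor and the channel stood at similar levels. Tomm20, a receptor for presequences (ENSMUSG00000093904.2, chr8:126930667-126945844), stood at 314 CPM in replicate 1 and at 385 CPM in replicate 2. Tomm40, the channel itself (ENSMUSG00000002984.17, chr7:19701313-19715438), had 334 and 324 CPM. The libraries stood in opposite order for these genes, and neither difference passed the test between libraries described below. The small channel subunits Tomm7, Tomm6 and Tomm5 averaged 207, 205 and 143 CPM. Tomm70a, the receptor for carrier proteins, averaged 133 CPM and Tomm22, the central receptor, 113 CPM. Tomm34, a cytosolic co-chaperone, averaged 31.4 CPM.

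The related copies of the channel and receptor genes were minor. Tomm40l averaged 51.9 CPM, and Tomm40 held 88% of that pair's reads in replicate 1 (interval 83.0 to 91.9) and 84.7% in replicate 2 (80.1 to 88.7). Tomm20l (ENSMUSG00000021078.5, chr12:71111428-71123221) had 4 reads in replicate 1 and 0 in replicate 2, where 0 reads allow up to 3.89 CPM, and was the 1 gene of the set too low to test. Tomm20 held 97.9 and 100% of the reads of its pair in replicates 1 and 2.

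Genes of the presequence translocase of the inner membrane summed to 1236 ± 67.1 CPM over 6 genes (SD, n = 2) and differed little between the libraries. The channel gene Timm23 (ENSMUSG00000013701.13, chr14:32180162-32201898) stood at 357 CPM in replicate 1 and at 413 CPM in replicate 2. Its partner Timm17a had 212 and 240 CPM and the other copy, Timm17b, 70.8 and 72.5 CPM. Timm17a thus held 75% of the pair in replicate 1 (interval 67.7 to 81.3) and 76.8% in replicate 2 (70.9 to 81.9). The receptor Timm50 averaged 227 CPM and Timm44, which ties the import motor to the channel, 226 CPM, while Timm21 averaged 100.3 CPM.

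The carrier branch summed to 905 ± 141 CPM over its 9 genes (SD, n = 2), and 1 small chaperone gene stood above the rest. Timm13, a small chaperone (ENSMUSG00000020219.7, chr10:80899450-80900969), stood at 302 CPM in replicate 1 and at 427 CPM in replicate 2. Its partners of the same complex were lower, with 132 and 168 CPM for Timm8b and 43.8 and 88.1 CPM for Timm8a1 on the X chromosome. Timm8a1 took 25% of the Timm8 reads in replicate 1 (interval 17.0 to 34.4) and 34.3% in replicate 2 (27.8 to 41.4). The chaperones of the other complex, Timm10 and Timm9, averaged 47.8 and 39.2 CPM, and Timm10b, which docks them on the carrier translocase, averaged 74.9 CPM. Timm10 held 47.5% of the reads of Timm10 and Timm10b in replicate 1 (34.6 to 60.7) and 32.7% in replicate 2 (24.1 to 42.3), intervals that overlap. Timm22, the carrier channel, and Timm29, a subunit beside it, averaged 67.9 and 87.3 CPM. Timmdc1, an assembly factor of respiratory complex I in spite of its name, had 4 and 7 reads.

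Among the 6 cristae genes, which summed to 781 ± 60.3 CPM (SD, n = 2), Chchd3 was the most abundant. Chchd3, a subunit of the cristae complex (ENSMUSG00000053768.13, chr6:32790976-33060260), stood at 260 CPM in replicate 1 and at 335 CPM in replicate 2. It held 82.4% of the reads it shares with its relative Chchd6 in replicate 1 (interval 76.1 to 87.5) and 83.8% in replicate 2 (79.2 to 87.7). Immt, the core of the complex (ENSMUSG00000052337.15, chr6:71831331-71877388), had 152 and 145 CPM, and Samm50, its outer membrane partner (ENSMUSG00000022437.7, chr15:84192241-84217267), had 145 and 153 CPM. These levels were close between the libraries and close to each other. The related genes Apoo and Apool averaged 57.3 and 68.7 CPM, and Apoo held 46.7% of the pair in replicate 1 (35.1 to 58.6) and 44.3% in replicate 2 (34.2 to 54.8), so neither gene led beyond counting error.

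The fusion genes were led by Mfn2. Mfn2 (ENSMUSG00000029020.13, chr4:147873599-147904704) had 191 reads (322 CPM) in replicate 1 and 206 reads (267 CPM) in replicate 2. Mfn1, its relative in the outer membrane, had 36 reads (60.7 CPM) and 26 reads (33.7 CPM), or 15.9% of the pair in replicate 1 (interval 11.4 to 21.3) and 11.2% in replicate 2 (7.45 to 16.0). Opa1, the fusion protein of the inner membrane (ENSMUSG00000038084.16, chr16:29579334-29654884), had 148 and 150.2 CPM, levels that lie within each other's counting error. The fusion group was the 1 group of the 7 with a higher sum in replicate 1, 531 CPM there against 451 CPM in replicate 2.

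No gene of the set passed the test between the libraries. The reads of each gene were set against the library totals in an exact binomial test (two-sided), adjusted over all 10567 genes. An adjusted p below 0.05 together with a difference of at least 2-fold was met by 0 of 41 tested members and by 3.46% of all tested genes, 0.88% in the direction of a lower level in replicate 1. Without adjustment 14 genes had p below 0.05, 13 of them lower in replicate 1, where the same rule met 16.0% of all genes. A negative binomial exact test in edgeR called 0 members (0 also at an unadjusted p below 0.05) and 1.17% of all genes. Its dispersion was estimated from the difference between the same 2 libraries, so its count of 0 adds little. Timm8a1 lay just inside the 2-fold line, with 26 reads in replicate 1 and 68 in replicate 2, a ratio of 0.504 (interval 0.304 to 0.793), and Chchd7 came next at 0.522. Timm8a1 was called with edgeR's or DESeq2's scaling factors.

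Smaller differences ran mostly in 1 direction. With no minimum fold, 8 of the 41 genes had an adjusted p below 0.05 in the exact binomial test, and all 8 were lower in replicate 1, beside 6.79% of all genes in either direction and 3.61% in that direction. They were Chchd10, Chchd2, Phb, Timm13, Tomm6, Chchd1, Chchd7 and Timm8a1. With annotated transcripts alone 3 of 39 tested members passed, Chchd10, Chchd2 and Timm13, and with spliced models alone 6 of 40, without Chchd1 and Timm8a1. The share of all genes that passed under these settings was not taken, so the 3 and the 6 have no baseline. The test reaches smaller differences in genes with more reads, and the median member stood at 126 CPM, against 31.6 CPM over all tested genes. The shares of all genes given beside the count of 8 were not matched for level. Chchd10 had a ratio of replicate 1 over replicate 2 of 0.700 (interval 0.639 to 0.766, exact binomial test, adjusted p = 2.2e-13). For Chchd2 the ratio was 0.663 (0.585 to 0.751, exact binomial test, adjusted p = 2.4e-09), and for Phb 0.747 (0.650 to 0.856, exact binomial test, adjusted p = 0.00070, between 0.00015 and 0.088 over the alternatives of this test). The remaining ratios were 0.707 for Timm13, 0.656 for Tomm6, 0.569 for Chchd1, 0.522 for Chchd7 and 0.504 for Timm8a1. Mfn1 was the 1 gene with an unadjusted p below 0.05 in the other direction, with a ratio of 1.79 (1.06 to 3.11, exact binomial test, adjusted p = 0.23).

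Across the set 29 of 41 genes were lower in replicate 1, and the median log2 ratio of replicate 1 over replicate 2 was -0.17, against 0.04 over all tested genes, of which 47.5% were lower in replicate 1. By group the median log2 ratio was -0.55 for Chchd genes outside the cristae complex, -0.35 for the carrier branch, -0.29 for the outer membrane translocase, -0.22 for the prohibitins, -0.10 for the presequence translocase, -0.06 for cristae genes and 0.27 for fusion genes. Transcripts of the mitochondrial genome stood the other way round, taking 0.581% of reads in replicate 1 and 0.171% in replicate 2. Marker sums of steroid cortex, chromaffin cells, the brown fat list and kidney were, like most of these genes, lower in replicate 1. Those of liver, striated muscle and red cells were higher there. Not every gene followed its sum. Of the 5 chromaffin genes 3 were lower in replicate 1, while Dbh was higher there, with 216 against 139 CPM. Of the 8 striated muscle genes 1, Myh4, was lower in replicate 1. The part of these tissues in the ratios was not tested.

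Transcript length moved with the library ratio, in these genes and in all genes. Of the 10 genes whose most abundant spliced model was at most 1000 bases long, 7 were lower in replicate 1, and their median log2 ratio was -0.55, against -0.34 over 935 genes of that length. Between 1001 and 2000 bases the medians were -0.21 for 16 members and -0.13 for 2518 genes, and between 2001 and 4000 bases 0.07 for 7 members and 0.08 for 4407 genes. Above 4000 bases they were -0.12 for 8 members and 0.28 for 2259 genes. Spearman's rho of length and log2 ratio across genes, which are not independent, was 0.369 over the 41 members and 0.289 over 10119 genes. Of all genes of at most 1000 bases, 72.6% were lower in replicate 1, beside the 7 of 10 members. The 8 genes with an adjusted p below 0.05 were 5 of these 10 and 3 of the 16 members between 1001 and 2000 bases. Over all genes of those lengths, 17.97 and 4.73% met that rule in the same direction. The part of length in their ratios was not tested.

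**Figure D2:**
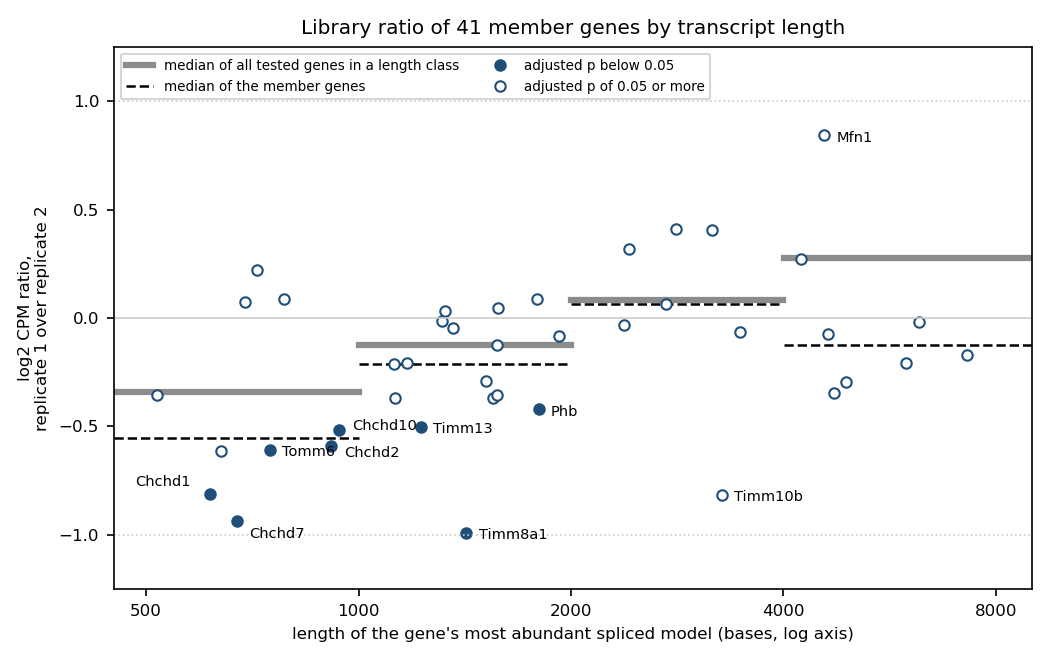
Log2 ratio of replicate 1 over replicate 2 of each of the 41 tested genes against the length of its most abundant spliced model (log axis); filled points have an adjusted p below 0.05, dotted lines mark a 2-fold difference, and bars give the median of all tested genes (grey) and of the members (dashed) in 4 length classes. The filled points lie left of 2000 bases and below 0, and the grey medians run between -0.34 and 0.28 with length.

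Other genes of the same or related processes were counted in the same way. A list of 37 tested genes covered import, folding, proteases and mitochondrial division. In it 0 were called and 6 had an adjusted p below 0.05 with no minimum fold, all lower in replicate 1, beside 3.61% of all genes in that direction. The median log2 ratio of this list was -0.16. They were Hspe1 and Hspd1, the chaperonin pair of the matrix, Grpel1, a cofactor of the import motor, Romo1, and the cristae complex genes Minos1 and 2410015M20Rik. Hspe1 had 231 reads (389 CPM) in replicate 1 and 543 reads (703 CPM) in replicate 2, and Hspd1 539 reads (909 CPM) and 879 reads (1138 CPM). The motor protein gene Hspa9 had 747 and 742 CPM and the matrix protease gene Lonp1 661 and 667 CPM, nearly equal in the libraries. In a list of 13 tested genes of small proteins with the same twin cysteine motif as Chchd proteins, 0 were called and 6 had an adjusted p below 0.05, all lower in replicate 1 (beside the same 3.61%), and the median log2 ratio was -0.46. Transcript length was not compared for these lists, and the share of all genes was not matched to their level. Cox6b1, a subunit of cytochrome oxidase, led that list with 1834 and 2520.2 CPM, and Cox17, its copper chaperone, had 362 and 591 CPM. That list summed to 4454 CPM in replicate 1 and 6291 CPM in replicate 2. The import, folding, protease and division list summed to 7452 and 8936 CPM.

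Reads of these genes matched annotated transcripts more often than reads of all genes. The share was 78.1% in replicate 1 (interval 76.8 to 79.2) and 84.0% in replicate 2 (83.2 to 84.8) for the set, against 71.0 and 75.6% over all annotated genes. Models that hold only part of an annotated splice chain took 4.94 and 3.32% of the set's reads, against 10.4 and 8.50%. Single-exon models, annotated or not, took 5.71 and 3.73%, against 14.5 and 12.0%. Unannotated single-exon models alone took 5.67 and 3.69%, against 10.35 and 8.21%. New combinations of annotated splice sites were the exception, with 8.80 and 7.13% of the set's reads against 4.68 and 4.22% over all annotated genes. They sat in few genes: Phb2, Immt and Opa1 had 243, 64 and 36 of the set's 410 such reads in replicate 1, and 333, 65 and 49 of 530 in replicate 2. Of the Phb2 reads, 231 and 327 lay on a chain that differs from an annotated transcript only by a 6-base exon. In Immt, 24 and 26 lay on a chain that differs only by a 15-base exon. Models of all genes seldom held exons so short, as described below, so this excess is stated for the deposited models only.

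**Figure D3:**
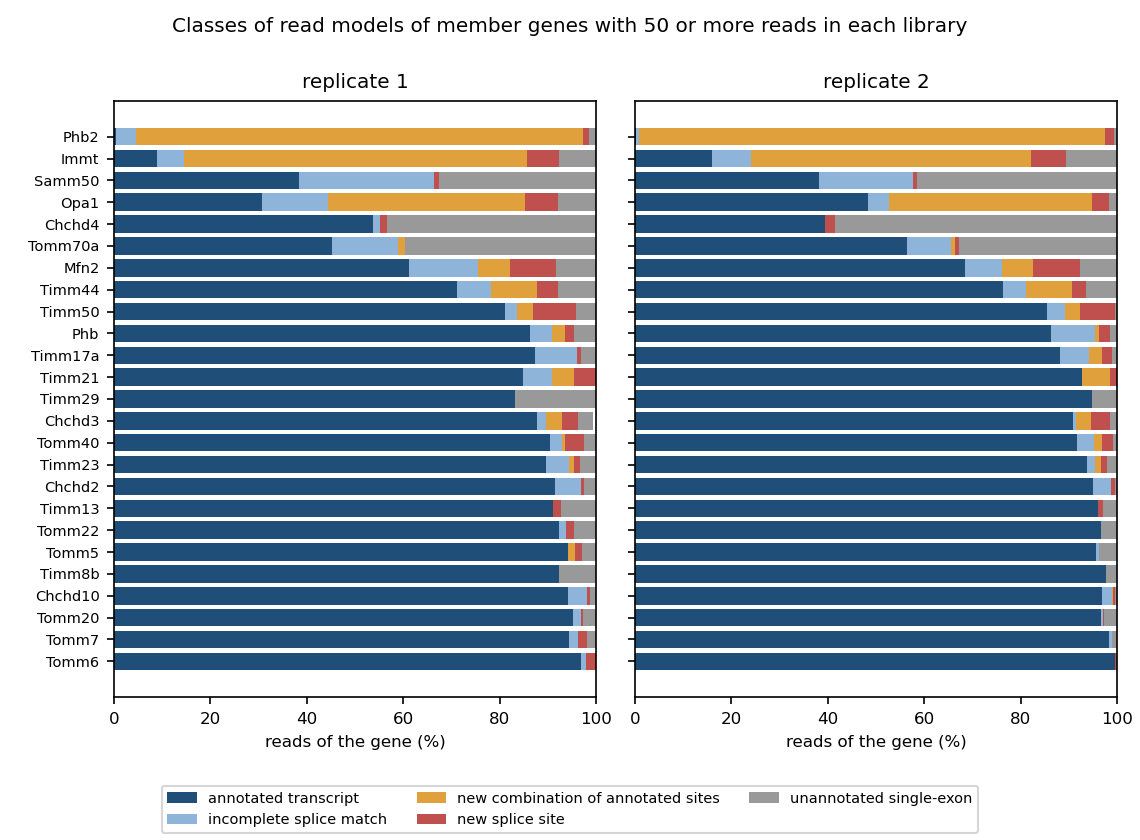
Share of the reads of each gene (%) in 5 classes of model, for the 25 genes with 50 or more reads in both libraries, replicate 1 left and replicate 2 right, sorted by the annotated share. In Phb2 nearly all reads fall in new combinations of annotated sites (orange), and in Chchd4, Samm50 and Tomm70a unannotated single-exon models (grey) take a large part.

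For the 25 genes with 50 or more reads in both libraries, the share of reads on the main annotated transcript was compared. None passed a two-sided Fisher's exact test adjusted over 2146 genes with a difference of at least 10 percentage points (0 of 25, beside 1.72% of all genes). An unadjusted p below 0.05 in that test was met by 3, Chchd10, Mfn2 and Chchd2. The share of all genes that met this unadjusted rule was not taken, so the 3 have no baseline. In 16 genes the main transcript held at least 80% in both libraries. Tomm20-201, with 95.2% in replicate 1 and 96.6% in replicate 2, was highest in replicate 1, and Tomm7-201, with 94.4 and 98.3%, was highest in replicate 2. Mfn2-204 held 47.1% of Mfn2 reads in replicate 1 (interval 39.9 to 54.5) and 61.2% in replicate 2 (54.1 to 67.9, Fisher's exact test, adjusted p = 0.11). The main transcript held less than 50% in both libraries in 4 genes, Phb2, Immt, Opa1 and Samm50.

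In Phb2 the deposited models of the reads lacked a 6-base exon that the annotated transcript Phb2-201 holds. The set has 4 such coding exons of at most 22 bases with enough reads, and their sequences, from the GENCODE M21 transcripts on mm10, are given to show how little sequence the shares below turn on. Capitals mark the exon and lower case the 24 coding bases on each side, 5′ to 3′ on the transcribed strand.
Phb2, chr6:124716425-124716430, plus strand: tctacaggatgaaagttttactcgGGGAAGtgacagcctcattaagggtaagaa
Chchd3, chr6:32893392-32893406, minus strand: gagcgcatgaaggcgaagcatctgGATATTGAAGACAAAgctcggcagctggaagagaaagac
Immt, chr6:71866726-71866740, plus strand: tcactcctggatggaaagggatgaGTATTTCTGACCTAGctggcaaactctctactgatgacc
Timm50, chr7:28310079-28310100, minus strand: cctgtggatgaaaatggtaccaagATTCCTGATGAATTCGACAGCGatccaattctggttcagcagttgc

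Of reads whose spliced model spans the 6-base exon of Phb2, 0 of 255 in replicate 1 and 0 of 343 in replicate 2 held it. The intervals reach 1.44 and 1.07%, but cover counting error in the deposited models only, not how the alignment placed so short an exon. Most Phb2 reads, 231 of 262 in replicate 1 and 327 of 345 in replicate 2, lay on 1 unannotated chain of 9 exons. This chain matches Phb2-201 except that the exons beside the 6-base exon are joined directly. The 15-base exons behaved alike: 0 of 146 and 0 of 253 reads held that of Chchd3, and 0 of 78 and 0 of 93 that of Immt. The 22-base exon of Timm50 was held by 104 of 113 reads in replicate 1 (92.0%) and 179 of 188 in replicate 2 (95.2%). Of annotated transcripts that span them, 2 of 5 hold the Phb2 exon, 1 of 7 that of Chchd3, 5 of 7 that of Immt and 1 of 2 that of Timm50. The exons of 6 and 15 bases are multiples of 3 and their absence keeps the reading frame, while that of Timm50 is not.

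Inclusion followed exon length over all genes in the same way. Of 27 annotated internal exons of 1 to 10 bases with enough reads, 27 were in under 5% of reads in both libraries. That share was 77.1% of 70 exons of 11 to 20 bases, 15.1% of 225 exons of 21 to 30 bases, 5.66% of 1271 exons of 31 to 50 bases and 1.26% of 19179 exons above 100 bases. How the alignment placed the bases of such exons was not tested, since the reads themselves were not used here. Their absence is thus stated for the deposited models only. It lowers the annotated shares given above for Phb2 and Immt and raises their shares of new combinations.

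**Figure D4:**
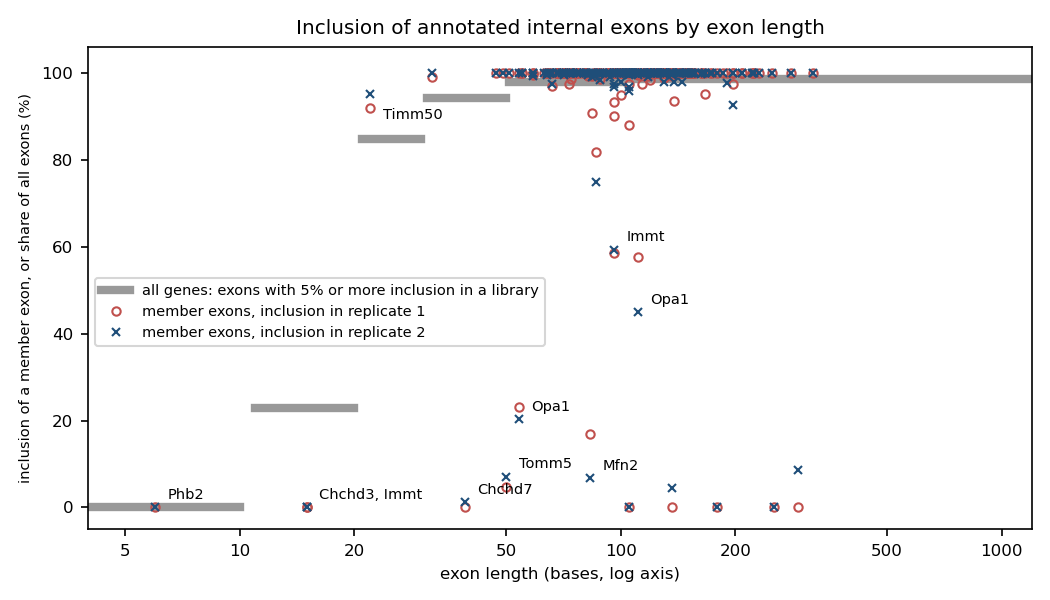
Share of reads (%) that hold each annotated internal exon of the member genes against its length in bases (log axis). Circles are replicate 1 and crosses replicate 2. Only reads that hold the exon exactly or skip it whole are counted, and reads with another start of it are left out. The 138-base form of the Immt exon thus lies at 93.5 and 98.0%. Grey bars give, over all genes, the share of exons of that length held by at least 5% of such reads in at least 1 library. Member exons of 6 and 15 bases lie at 0 in both libraries, and the 22-base exon of Timm50 lies at 92.0 and 95.2%.

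Longer coding exons of Opa1 and Immt were held by part of the reads. Their sequences are given because the shares below rest on them. The first lines are the 54- and 111-base exons of Opa1. The Immt lines are its 96-base exon and the 138-base exon before it, whose first 33 bases, in capitals, are left out of its 105-base form.
Opa1 54-base exon, chr16:29588823-29588876, plus strand: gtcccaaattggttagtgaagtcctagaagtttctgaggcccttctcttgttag
Opa1 111-base exon, chr16:29597586-29597696, plus strand: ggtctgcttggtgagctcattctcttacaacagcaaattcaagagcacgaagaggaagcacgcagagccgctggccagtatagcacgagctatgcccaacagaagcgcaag
Immt 96-base exon, chr6:71853173-71853268, plus strand: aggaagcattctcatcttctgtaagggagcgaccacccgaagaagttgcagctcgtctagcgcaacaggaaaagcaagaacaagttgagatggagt
Immt 138-base exon, chr6:71852730-71852867, plus strand: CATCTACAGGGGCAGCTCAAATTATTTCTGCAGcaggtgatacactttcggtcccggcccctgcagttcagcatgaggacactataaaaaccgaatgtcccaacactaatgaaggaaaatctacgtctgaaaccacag

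Opa1 is known for alternative exons near the sites where mitochondrial proteases cut its protein. The 54-base exon was held by 16 of 69 reads in replicate 1 (23.2%, interval 13.9 to 34.9) and 22 of 108 in replicate 2 (20.4%, 13.2 to 29.2). The 111-base exon was held by 41 of 71 reads in replicate 1 (57.7%, 45.4 to 69.4) and 49 of 109 in replicate 2 (45.0%, 35.4 to 54.8). The intervals of the libraries overlapped for each exon, and both lengths are multiples of 3. Because a read can span both exons, their combination was read from single molecules, 68 in replicate 1 and 108 in replicate 2.

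All 4 combinations of the Opa1 exons were present in both libraries. Neither exon was held by 25 reads in replicate 1 and 48 in replicate 2, the 111-base exon alone by 27 and 38, both by 12 and 11, and the 54-base exon alone by 4 and 11. Among reads with the 54-base exon, 12 of 16 (75%) in replicate 1 and 11 of 22 (50%) in replicate 2 also held the 111-base exon, against 27 of 52 (51.9%) and 38 of 86 (44.2%) among reads without it. These shares have wide intervals, such as 47.6 to 92.7% for the 12 of 16 reads, and those of reads with and without the 54-base exon overlapped in both libraries. Dependence between the exons was not tested. The most abundant annotated transcript, Opa1-206, held 26.1% of Opa1 reads in replicate 1 and 38.8% in replicate 2. A single unannotated chain of 30 exons held 24 and 37 reads, 27.3 and 31.9%.

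Immt was split among more forms than any one annotated transcript covers. Its 138-base exon appeared in 3 lengths set by alternative starts. In replicate 1, 43 of 72 reads had the 138-base form, 22 the 105-base form and 7 the 102-base form, and in replicate 2 the counts were 48, 30 and 7 of 85. The 96-base exon was held by 44 of 75 reads in replicate 1 (58.7%, interval 46.7 to 69.9) and 51 of 86 in replicate 2 (59.3%, 48.2 to 69.8). Joined on single reads, the 138-base form with the 96-base exon was the most frequent, 25 of 74 reads in replicate 1 and 34 of 85 in replicate 2. The 138-base form without it had 17 and 14 reads, and the 105-base form had 14 and 12 reads with the 96-base exon and 8 and 17 without it.

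**Figure D5:**
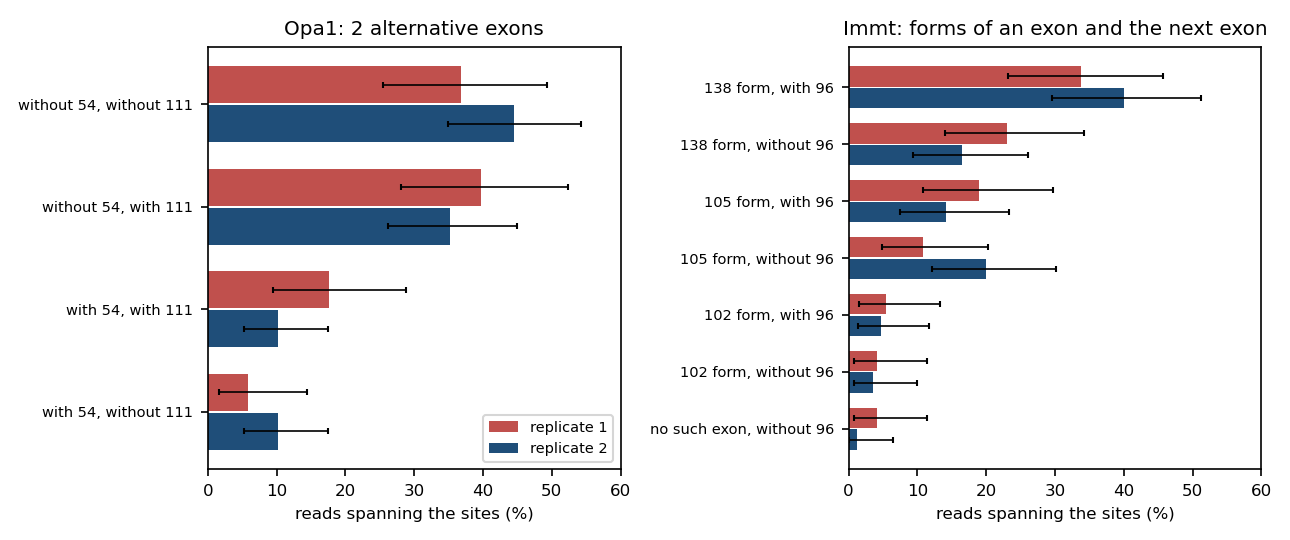
Share of reads that span the alternative exons (%), by combination held on the same read, in replicate 1 (red) and replicate 2 (blue), with 95% exact binomial intervals; left Opa1, right Immt. In Opa1 the form with neither exon (36.8 and 44.4%) and that with the 111-base exon alone (39.7 and 35.2%) lead, and in Immt the 138-base form with the 96-base exon (33.8 and 40.0%).

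The leading Immt chains were unannotated in the deposited models, and none held the 15-base exon. The 3 most abundant, of 14, 13 and 14 exons, had 24, 15 and 14 reads in replicate 1 and 26, 13 and 11 in replicate 2, while the main annotated transcript, Immt-203, had 5 and 14 reads. The most abundant chain shared 12 of its 13 introns with Immt-201 and differed from it only by the 15-base exon. The other 14-exon chain shared 12 of 13 with Immt-202, which also holds that exon. The 13-exon chain shared 11 of 12 with Immt-203. How the alignment placed the 15-base exon was not tested, so the unannotated status of the 14-exon chains may rest on it. Of 10 alternative exons in 8 member genes with enough reads, 0 differed between the libraries in a two-sided Fisher's exact test. The test was adjusted over 1089 exons, of which 0.735% differed. It set reads that hold an exon against reads that skip it whole, so the alternative starts of the Immt exon were not compared. At an unadjusted p below 0.05 there was 1, an 83-base exon outside the coding part of Mfn2, held by 25 of 147 reads in replicate 1 (17.0%) and 12 of 178 in replicate 2 (6.74%, Fisher's exact test, adjusted p = 0.36). The share of all exons that met this unadjusted rule was not taken.

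Among all annotated internal exons of the set with enough reads, which lie in 36 genes, 199 (90.0%) were held by at least 95% of reads in both libraries, against 93.9% of 31179 exons over all genes. A further 8 were held by under 5% of reads in both libraries, among them the 6- and 15-base exons. They also include overlapping forms of a Timm9 exon, of 136 and 252 bases with the same start, so the 8 are not all separate exons. Over all genes the share under 5% was taken by length class only. It was 2.06% of 10407 exons of 51 to 100 bases and 1.26% of 19179 exons above 100 bases. It was higher for shorter exons, as given above.

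In Chchd4, Samm50 and Tomm70a short single-exon models inside the last exon took a large part of the reads. All unannotated single-exon models together held 43.5, 32.6 and 39.7% of the reads of these genes in replicate 1, and 58.5, 41.5 and 32.7% in replicate 2. In Samm50 another 27.9% in replicate 1 and 19.5% in replicate 2 lay on models with part of an annotated splice chain. In Chchd4, 30 of 69 reads in replicate 1 and 55 of 94 in replicate 2 lay on a model of 175 bases in replicate 1 and 280 bases in replicate 2. It lies wholly in the 3′ UTR, inside a last exon of 3142 bases, and stops 2105 bases before the annotated end in replicate 1 and 2104 bases before it in replicate 2. In Samm50, 27 of 86 and 47 of 118 reads lay on a model of 177 and 178 bases at the start of the last exon, and in Tomm70a 27 of 73 and 36 of 110 reads on a model of 244 bases at the start of its last exon of 4123 bases. The models sit at the same place in both libraries. With them, Chchd4-201 held 52.2% of the gene's reads in replicate 1 and 38.3% in replicate 2, Samm50-201 38.4 and 38.1%, and Tomm70a-201 45.2 and 56.4%. The levels of these 3 genes given above count such reads.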

How the data were processed

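The authors deposited, per library, counts of whole reads for every transcript model, not normalized, beside exon number and length, and an annotation of the models. Notes in the deposit name the build mm10 and GENCODE M21, and the annotation's source field, per the file headers, names TALON. The platform, the aligner and tool versions were not given in the sources used here. Model classes are those of the deposited tables.

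Counts of a gene's models were summed, ERCC spike-ins left out, and CPM computed from 593165 and 772154 reads. The labels' SIRV spike-ins were not analysed here. Spliced models were matched between libraries by introns. An exon was held where a spliced model contains it exactly, and skipped where 1 intron spans it. Reads with another start or end of the exon counted as neither.

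With 1 group, tests compare the reads of 2 libraries: two-sided exact binomial tests over genes with 10 or more reads summed (pseudocount 0.5 reads), and two-sided Fisher's exact tests of main transcript share (50 or more reads in each library) and exon inclusion (20 or more informative reads in each library and at least 5% of the minor form), all with Benjamini-Hochberg adjustment over all genes or exons. Calls needed an adjusted p below 0.05 and 2-fold or 10 percentage points. Intervals are 95% exact Poisson or Clopper-Pearson intervals. Alternatives were edgeR 4.0.16 TMM factors and its negative binomial exact test with the common dispersion, DESeq2 1.42.0 size factors, other read minimums, annotated or spliced models alone, and each library left out. Python 3.11.15 with scipy 1.17.1 was used, and the tests were tested on simulated data.

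The 42 genes, the gene lists, the pairs and the tests were chosen with earlier results of these data known. Named are the 10 most abundant members, both genes of each pair, members called or with 0 reads, members with most reads off annotated transcripts and the most abundant unannotated chains, and each other member is given with its role. Members named for an adjusted p below 0.05 with no fold minimum, Hspa9, Lonp1 and the exons under 5% inclusion were chosen after their values were seen.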

Additional observations from a re-analysis of the deposited data

How the results depend on the processing

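No paired analysis was possible because the labels give 1 group only. The count of called members was 0 with a minimum of 1 or 50 reads, in the negative binomial test and with annotated or spliced models alone, 1 (Timm8a1) with edgeR TMM factors and 1 (Timm8a1) with DESeq2 size factors, and 8 with no fold minimum. TMM factors moved all log2 ratios by -0.04 and size factors by -0.03. Under both, 9 of 41 tested members had an adjusted p below 0.05, all lower in replicate 1. With annotated transcripts alone 3 of 39 did, and with spliced models alone 6 of 40. The share of all genes below that adjusted p was not taken for any of these settings. The 366 calls over all genes became 191 with a minimum of 50 reads, 124 in the negative binomial test, 717 with no fold minimum and 238 with annotated transcripts alone. For the 8 members, adjusted p ranged between 2.5e-15 and 0.19 over the exact binomial alternatives. The summed level of the 42 genes was 10285 CPM with annotated transcripts alone and 10179.9 CPM with spliced models alone, each of its own total. For the import, folding, protease and division list and the twin-cysteine list together it was 17190 and 15921 CPM, against 13567 CPM. As a median over genes with 50 reads in each library, the annotated share was 89.5% and the single-exon share 3.16%. With each replicate left out, the summed level lay between 7854 and 9622 CPM. Of 40 alternatives for shares of pairs 4 moved by more than the spread between replicates, all with annotated transcripts alone. That setting moved 4 of the 10 pairs, and spliced models alone moved none. The alternatives with a replicate left out could not move by more, since the spread came from the same replicates, so they show no stability. No alternative changed which gene of a pair held most reads. The counts of 0 for main transcripts and exons stayed at 0 with 20 or 10 reads as minimum, with no minimum difference, and for main transcripts with spliced reads alone. Depth limits genes near 5 CPM and the Opa1 and Immt combinations.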
